A study of Mus musculus with 4 samples.

Results

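The REG family of secreted C-type lectins was followed in thymic epithelial cells of mice with and without induced deletion of Meis1. The 7 genes Reg1, Reg2, Reg3a, Reg3b, Reg3d, Reg3g and Reg4 were taken by symbol, and each was measured by 1 probe, so 7 of the 41174 probes of the array, and 7 of 21287 gene symbols, are described. The family was chosen by the brightness of Reg3g, whose probe is very bright in all pools, so that brightness is a description and is not tested here. The rule of that choice did not use the genotype difference, although earlier results of these data were known. There were 2 pools of each genotype, each pool from 6 mice and each on 1 single-colour microarray. The control mice carried the tamoxifen-inducible K14-CreERT2 recombinase with 1 floxed and 1 normal Meis1 allele (the labels' WT), and the Meis1-CKO mice carried the same recombinase with both Meis1 alleles floxed. All mice of both groups were 3 weeks old and received 1 mg of tamoxifen by injection on each of 3 days, and CD45- EpCAM+ cells were sorted 4 days later. The recombinase is driven by the promoter of keratin 14, a keratin of medullary thymic epithelium, whereas the sort takes all EpCAM+ cells, and the sources used here do not give the share of cells in which Meis1 was deleted. The cDNA was amplified from 10 ng of RNA per pool.

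REG proteins are small secreted proteins with a single lectin domain, best known from the pancreas and the gut. Reg3g and Reg3b are bactericidal lectins of the intestinal epithelium, and Reg1 and Reg2 encode the pancreatic stone proteins of acinar cells. In the thymus, medullary epithelial cells transcribe many genes that are otherwise restricted to peripheral tissues, part of them under the control of Aire, and display them to developing T cells. Genes of pancreas and gut are among these tissue-restricted antigens.

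The probes are shown because every value below is the brightness of 1 of these oligonucleotides, and the 4 Reg3 genes are close relatives. These are bases 1 to 30 of the 60 bases of the Reg3 probes, 5′ to 3′, as given in the array files.
Reg3g: gagtacagaattgacatcatgggttgatat
Reg3b: gtgaagactcacctagaaaaagcattttct
Reg3a: cccatgacaagggatgaaatacaagaattc
Reg3d: ggccagttctgatttcaactgcctgaaagt
Over the full probes, the longest run of bases shared by any of the 21 pairs of REG probes was between 5 and 8 bases. No other probe of the array shared a run of 20 bases with any of them. Probes were compared with probes only and not with the transcripts of the other REG genes. Binding of a probe to the RNA of a relative was therefore not tested. The files place the Reg3g probe at chr6:78416420-78416479 on the minus strand of mm9 and the Reg3d probe at chr6:78326006-78326065, also on the minus strand. The Reg3b (chr6:78323323-78323382), Reg3a (chr6:78333635-78333694), Reg2 (chr6:78357959-78358018) and Reg1 (chr6:78378527-78378586) probes lie on the plus strand of the same cluster. The Reg4 probe lies on chromosome 3 and its ends are 3247 bases apart (chr3:98037005-98040251), so that it crosses an intron. Which part of its transcript each of the other probes matches was not determined. In the RefSeq gene order the cluster runs Reg3b, Reg3d, Reg3a, Reg2, Reg1, a pseudogene (Gm52853) and Reg3g.

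The promoters of Reg3g, of Reg3b and of Reg3d are shown because of what their probes read. Reg3g was the brightest member, and Reg3b followed it across the pools more closely than Reg3a, the other tested Reg3 gene, did. Reg3d was well above background in 1 pool only. Each line gives the 100 bases before the annotated start, 5′ to 3′ on the strand of the gene, from RefSeq (GRCm38.p6), with the letters TATAAA in capitals.
Reg3g: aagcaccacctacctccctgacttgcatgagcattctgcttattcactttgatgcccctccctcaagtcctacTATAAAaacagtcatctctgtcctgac
Reg3b: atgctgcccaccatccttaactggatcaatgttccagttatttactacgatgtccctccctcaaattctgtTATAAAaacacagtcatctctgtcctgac
Reg3d: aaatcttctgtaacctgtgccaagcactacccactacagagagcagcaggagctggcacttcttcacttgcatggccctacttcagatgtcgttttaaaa
These windows are chr6:78468875-78468974 (minus strand), chr6:78370785-78370884 (plus strand) and chr6:78378866-78378965 (minus strand) on GRCm38.p6. All 7 members had a promoter entry. Over the 250 bases before the start, Reg3g and Reg3b were the most alike of the 21 pairs, with 68.9% identity in a global alignment, followed by Reg1 and Reg2 with 58.5%. The letters TATAAA, searched on both strands from 250 bases before to 50 bases after the start, were found for 4 of 7 members (Reg1, Reg2, Reg3b and Reg3g) and in 13.6% of 32851 mouse promoters. In those 4 a plus-strand match began 30, 30, 29 and 27 bases before the start. The letters TTCNNNGAA, which STAT factors can bind, were found for Reg3b and Reg3d and in 8.30% of promoters, on either strand. A match describes the letters only.

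The share of spots well above background was 58.6% to 63.6% per array, and 0 spots were saturated. Control 1 and Meis1-CKO 1 shared a slide and scan (slide 1), as did control 2 and Meis1-CKO 2 (slide 2). Across 16802 features, Meis1-CKO 2 correlated with the other arrays at 0.857 to 0.884, while the other arrays correlated with each other at 0.936 to 0.943. All 10 defining markers of thymic epithelium, among them Epcam, Krt5, Foxn1 and Psmb11, were well above background on all 4 arrays. The Meis1 probe read -0.12 (control 1), -0.91 (control 2), -0.44 (Meis1-CKO 1) and -2.08 (Meis1-CKO 2), and since the floxed exons are not named in the sources used here, it does not check the labels. All levels are log2 signals relative to the 75th percentile of the array, and "well above background" is the scanner software's own call. The labels do not say whether the mice of different pools were litter mates, and p-values measure the spread between these pools only. A lower signal can come from fewer cells of a type or from less RNA per cell, which cannot be told apart in pooled cells.

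Reg3g, whose protein binds the cell wall of Gram-positive bacteria, had a processed signal of 6078 and 6228 in the control pools, against 7880 in Meis1-CKO 1 and 3884 in Meis1-CKO 2. Its spot was brighter than 99.3%, 99.2%, 99.5% and 98.1% of the spots on those arrays. Probes differ in how brightly they bind, so this does not order the RNA of different genes. Relative to the 75th percentile, Reg3g read 6.03 (control 1), 5.51 (control 2), 6.18 (Meis1-CKO 1) and 4.67 (Meis1-CKO 2). The genotypes overlapped, since the Meis1-CKO pools held the highest and the lowest value. The control pools averaged 5.77 ± 0.37 (SD, n = 2) and the Meis1-CKO pools 5.42 ± 1.06 (SD, n = 2).

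Reg3b, the paralogue whose protein acts on Gram-negative bacteria in the gut, read 0.32, 0.59, 0.87 and -1.15 in the same order of pools. Its 2 control pools and Meis1-CKO 1 lay within 0.54 of each other, and Meis1-CKO 2 stood below all of them. Reg3a, another gene of the same cluster, read -0.42, -1.76, -0.35 and -3.18. As for Reg3g, the slide 1 pools were the higher ones for Reg3a and Meis1-CKO 2 was the lowest.

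Reg3d, a relative of the islet neogenesis-associated protein INGAP, was close to background. Its processed signal was 1.73 and 2.55 in the control pools, where the software had replaced it by a surrogate, 3.78 in Meis1-CKO 1 and 23.5 in Meis1-CKO 2. Only the last of these was well above background, so Reg3d did not pass the filter and was not tested. On the log2 scale it read -5.75, -5.74, -4.85 and -2.70. Meis1-CKO 2 was at least 1.64-fold above control 2, counted against the dimmest signal well above background on the control 2 array. No fold is given for the genotypes, because the mean of both Meis1-CKO arrays lay below that bound. With normexp background correction the log2 difference between the genotypes was 0.19 in place of 1.97. On slide 2 it was 0.52 in place of 3.04, which is below the bound (0.72 on the log2 scale).

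Reg1, which encodes a pancreatic stone protein, read -0.84 and 0.39 in the control pools, 0.74 in Meis1-CKO 1 and -0.11 in Meis1-CKO 2. Reg2, its neighbour and close relative, read -2.74, -0.31, -1.52 and -1.65. For both, control 1 was the lowest pool, and control 2 read above Meis1-CKO 2. Reg4, a member outside the cluster that is known from secretory cells of the gut, read -2.44, -1.32, -1.35 and -3.32. Its Meis1-CKO 2 value was the lowest, and control 2 and Meis1-CKO 1 differed by 0.03, less than the error of their spots.

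**Figure D1:**
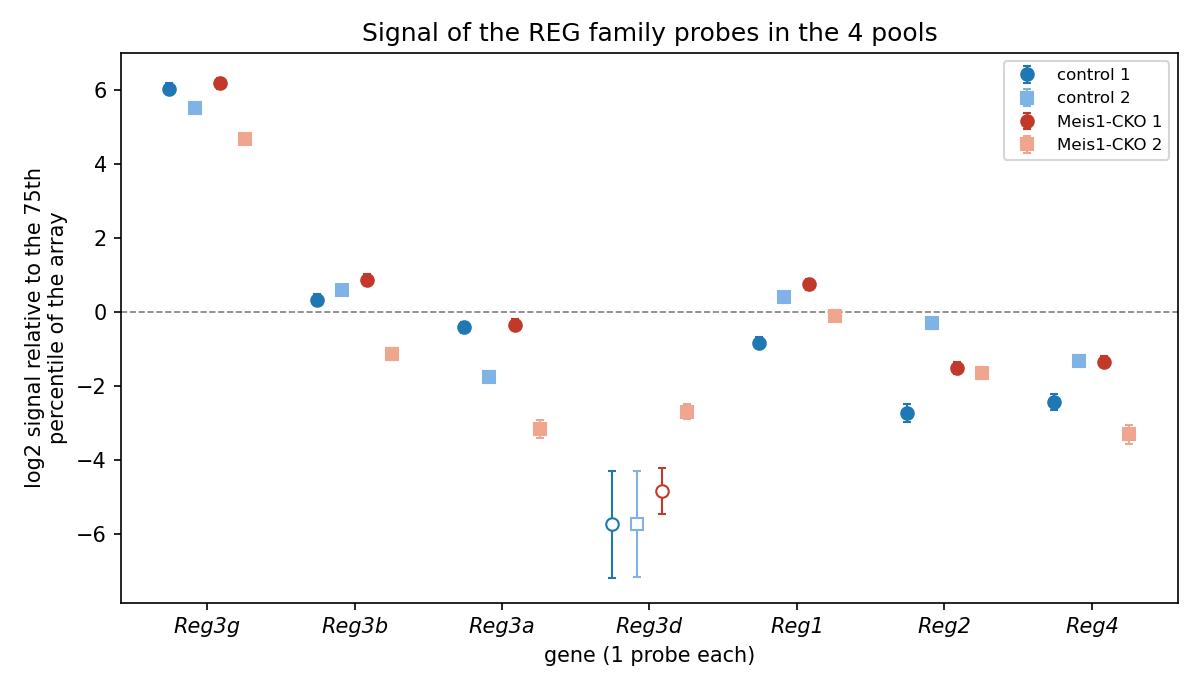
Log2 signal of each REG probe relative to the 75th percentile of its array (y axis) for the 7 genes (x axis) in the 4 pools. Bars are the scanner software's error of a single spot, and open symbols are not well above background. Reg3g lies between 4.67 and 6.18 in every pool, and Reg3d is well above background only in Meis1-CKO 2.

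The error of a spot, which holds no difference between pools, was set beside the differences between pools. The software put that error at 10.0% of the signal for Reg3g, and its headers set the part proportional to signal at 0.1, so it is largely a preset. Of the 36 pairs of pools for the 6 members well above background, 29 differed by over 2 combined spot errors. Between the 2 Meis1-CKO pools 5 of 6 members did so, Reg2 being the exception at -0.13 (Meis1-CKO 2 minus Meis1-CKO 1). Between the 2 control pools 5 of 6 members did so as well, with log2 differences of 2.43 for Reg2, 1.22 for Reg1, -1.34 for Reg3a, 1.11 for Reg4 and -0.52 for Reg3g (control 2 minus control 1). Reg3b differed by 0.26 between them. The direction was not common to the members, as Reg3a and Reg3g were lower and the others higher in control 2.

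None of the 6 tested REG genes differed between the genotypes beyond the spread between pools. As Meis1-CKO minus control, the log2 difference was -0.34 for Reg3g (SE 0.64, 95% confidence interval -1.94 to 1.25), -0.59 for Reg3b (SE 0.74), -0.67 for Reg3a (SE 1.03), -0.46 for Reg4 (SE 0.80) and -0.06 for Reg2 (SE 0.84). Reg1 was at 0.54 (SE 0.62, interval -1.0 to 2.08). Each had a limma adjusted p of 1 (unadjusted 0.418 to 0.946), in a test of 16810 features of which 0% were called higher and 0% lower at an adjusted p under 0.05 and 2.77% passed at an unadjusted p of 0.05, split into 1.35% higher and 1.42% lower. Without Meis1-CKO 1 the same fit called 200 features higher and 117 lower, 0 of them REG genes, and the lowest adjusted p of a REG gene under any setting tried was 0.199. By the mean of both slides 5 of the 6 members, and 54.6% of features, were lower in Meis1-CKO. The groups overlapped for all 6 tested members, where 25.5% of features had arrays of the genotypes that did not overlap, 3.34% being higher and 3.94% lower in Meis1-CKO by 2-fold or more. The median log2 difference was -0.40 for the 6 members and -0.05 for all features. The 95% interval of Reg3g runs from a lower to a higher level in Meis1-CKO, as do those of the other 5, so that a missed threshold does not show that the genotypes are alike. With 2 pools against 2 an exact permutation test of a single gene cannot go below p = 0.333 (two-sided), so none was run.

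Within the slides the tested members went opposite ways. On slide 1, Meis1-CKO 1 read above control 1 for all 6, by 1.58 for Reg1, 1.22 for Reg2, 1.09 for Reg4, 0.54 for Reg3b, 0.15 for Reg3g and 0.07 for Reg3a, where 50.1% of features were higher. On slide 2, Meis1-CKO 2 read below control 2 for all 6, at -2.0 for Reg4, -1.73 for Reg3b, -1.42 for Reg3a, -1.34 for Reg2, -0.84 for Reg3g and -0.50 for Reg1, where 56.3% of features were lower. The slide 1 values of Reg3g and Reg3a were smaller than the combined error of their spots (0.20 and 0.21). Among all features, 29.8% were higher on slide 1 and lower on slide 2. With scaling to the median of each array 5 of the 6 members kept that pattern, as Reg3a then read -0.06 on slide 1, and 20.7% of features showed it. That scaling moves the median difference of all features from 0.0017 to -0.13 on slide 1 and from -0.12 to 0.04 on slide 2. For Reg3d no direction can be read on slide 1, where neither spot was well above background. On slide 2 only the bound given above is read, and it does not hold with normexp.

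Meis1-CKO 2 was the lowest of the 4 pools for 4 of the 6 members (Reg3a, Reg3b, Reg3g and Reg4), where 36.9% of features were lowest there. Meis1-CKO 1 was the highest for 4 (Reg1, Reg3a, Reg3b and Reg3g), against 21.8% of features. Both held for the 3 genes Reg3a, Reg3b and Reg3g, against 12.7% of features. Genes of 1 family and cluster are not independent of each other, so these counts only describe them. Without Meis1-CKO 2 the difference of Meis1-CKO 1 from the mean of both controls was 0.41 for Reg3g, 0.41 for Reg3b, 0.74 for Reg3a and 0.53 for Reg4, all turned in sign. Without Meis1-CKO 1 it was -1.10, -1.60, -2.09 and -1.44.

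**Figure D2:**
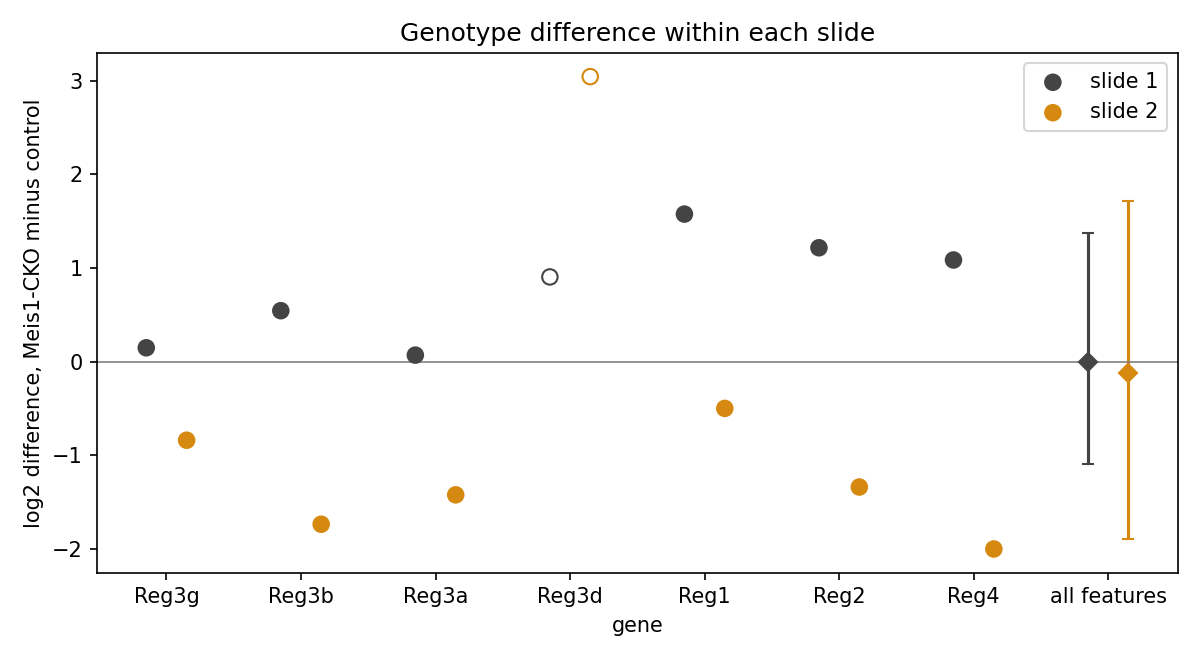
Log2 difference of Meis1-CKO minus control (y axis) on slide 1 and on slide 2 for each REG gene (x axis), each from 1 pool of each genotype. Diamonds with bars give the median and the range from the 5th to the 95th percentile of 16802 features, and open circles are Reg3d, which was not tested. The 6 tested genes lie above 0 on slide 1 and below 0 on slide 2, where Reg3a would read -0.06 on slide 1 with scaling to the array median.

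The members followed each other unequally over the 4 pools. With each gene centred on its own mean, the root mean square distance between 2 genes was smallest for Reg3b and Reg4 (0.31), then for Reg3b and Reg3g (0.35), Reg3a and Reg3g (0.58) and Reg1 and Reg2 (0.58). It was largest for Reg2 and Reg3a (1.67). Reg1 and Reg2, the 2 pancreatic stone protein genes, had their lowest value in control 1, where Reg3a and Reg3g read higher than in control 2. Reg3a, beside Reg3d in the cluster, was lowest in Meis1-CKO 2, the only pool in which Reg3d was well above background.

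Closest to Reg3g by this measure were Serpinb1b, which encodes a serpin protease inhibitor (0.02), Prrg3 (0.03), Lmbrd2 (0.03), Tanc2 (0.04) and the chloride channel family gene Clic5 (0.04). The 11938 candidates were the other genes well above background on all 4 arrays with a symbol that is not a clone name. The median distance of all candidates was 0.64. Serpinb1b read -0.06 and -0.61 in the control pools, 0.06 in Meis1-CKO 1 and -1.48 in Meis1-CKO 2. Of the candidates, 14.0% lay closer to Reg3g than Reg3b did, 41.7% closer than Reg3a, 45.2% closer than Reg4, 69.1% closer than Reg1 and 91.8% closer than Reg2. The likeness rests on 4 pools and is a description.

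**Figure D3:**
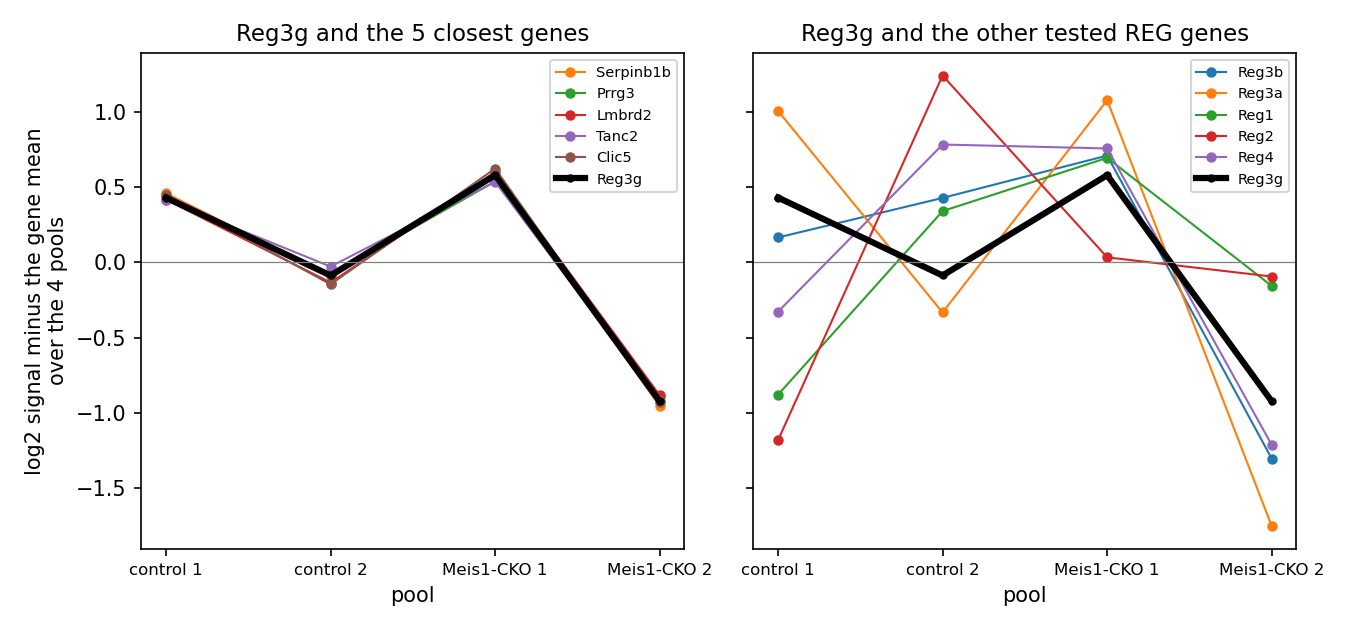
Log2 signal of each gene minus its mean over the 4 pools (y axis) by pool (x axis), for Reg3g (thick black line) with the 5 genes closest to it on the left and with the other 5 tested REG genes on the right. The closest genes overlie Reg3g, while Reg1 and Reg2 are lowest in control 1.

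The genes of the route that leads to REG expression in the gut and of the receptor did not pass the test. In epithelia, the cytokines IL-22 and IL-6 act through receptors, JAK kinases and STAT3 to raise Reg3g and Reg3b, and Extl3 is a receptor described for REG proteins. Of 27 listed genes, 22 were tested and 0 were called in either direction. Arrays did not overlap with a difference of 2-fold or more for 1 higher gene (3.34% of all features) and 0 lower ones (3.94%), and 8 had a mean difference below 0 (54.6% of all features). Their median log2 difference was 0.10, with 0.0057 on slide 1 and 0.40 on slide 2. The smallest unadjusted p-values were those of the kinase gene Jak2 (log2 difference 1.21, 0.14 on slide 1 and 2.29 on slide 2), the shared receptor chain gene Il10rb (0.62, 0.50 and 0.74), Il6 (1.37, -0.16 and 2.90) and Il11ra1 (-0.72, 0.02 and -1.46). The IL-22 receptor gene Il22ra1, the related gene Il22ra2 and the cytokine gene Il17a were not well above background on any array.

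Ligand, receptor and transducer are given here although chosen after their values were seen. The cytokine gene Il22 read -1.07 and 0.24 in the control pools, 0.25 in Meis1-CKO 1 and -1.86 in Meis1-CKO 2. It was higher in Meis1-CKO on slide 1 (1.32) and lower on slide 2 (-2.10), a pattern that 4 of the 22 tested genes of this list showed and 29.8% of all features. Stat3 read 6.59, 6.55, 6.59 and 6.08, and Extl3 read 0.59, -0.43, -0.26 and 0.96, a lower value in Meis1-CKO on slide 1 and a higher one on slide 2.

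Other antimicrobial and barrier secretions were tested for 23 of 26 genes, with 0 called. By the same 2-fold rule 1 was higher (3.34% of all features) and 2 were lower (3.94%). Their median difference was -0.26, with 0.35 on slide 1 and -0.73 on slide 2. Of the 23, 15 were higher on slide 1 and lower on slide 2 (29.8% of all features). Muc2, which is among the 23, passed the filter only through the controls. Nos2, the inducible nitric oxide synthase, was lower in both Meis1-CKO pools (-1.08 and -2.01) than in the controls (0.51 and 1.10). Its log2 difference of -2.35 had an unadjusted limma p of 0.00569 and an adjusted p of 1. The siderophore-binding gene Lcn2 was well above background in both Meis1-CKO pools and in neither control pool, and so passed the filter only through Meis1-CKO. The mean of the Meis1-CKO pools was at least 2.40-fold over the controls, each control taken at the higher of its own signal and the dimmest signal well above background on its array. That bound was 1.52-fold with Meis1-CKO 1 alone and 3.78-fold with Meis1-CKO 2 alone. The lactoferrin gene Ltf was higher in Meis1-CKO by 0.79 and 1.15 on the 2 slides, and the lactoperoxidase gene Lpo stood at -0.15 and -2.11.

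For the tissues in which REG proteins are best known, 0 genes were called and the list medians lay above 0 on slide 1 and below 0 on slide 2. With scaling to the array median, the slide 1 median of the intestinal list would lie below 0. For the exocrine pancreas, 13 of 25 listed genes were tested, with medians of 0.30 and -0.32 on the slides. Of the 13, 10 were lowest in Meis1-CKO 2 (36.9% of all features). Cel, the carboxyl ester lipase gene, differed by 1.27 and 0.31 on the 2 slides, the chymotrypsin-like gene Ctrl by -0.46 and -0.76, and the trypsin gene Try5 by -0.13 and -0.77. The elastase gene Cela3b differed by 0.36 on slide 1 and was at least 4.54-fold lower in Meis1-CKO on slide 2. Of 20 intestinal genes, 15 were tested, with medians of 0.03 and -0.91 and 13 lowest in Meis1-CKO 2 (36.9% of all features). This was not particular to these tissues, as 17 of 23 other antimicrobial genes and 9 of 10 thymic epithelial markers were lowest there. The gut homeobox gene Cdx1 differed by 0.03 on slide 1 and was at least 7.98-fold lower in Meis1-CKO on slide 2. The crypt gene Olfm4 differed by 0.08 and -2.56, the nuclear receptor gene Hnf4a by -0.52 and -0.80 and the fatty acid binding gene Fabp2 by -0.11 and -2.03. Cdx1 and Cela3b were not well above background in Meis1-CKO 2, hence the bounds, and passed the filter only through the controls. Pnlip, Sycn, Cela1 and Hnf4g also passed only through the controls, as did Muc2 of the antimicrobial list. Genes kept in this way are dim in a Meis1-CKO pool by the filter itself, and they enter the counts and medians of these lists.

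Of 15 endocrine genes of gut and islet, 11 were tested, with medians of 0.40 and -0.80 and 8 lowest in Meis1-CKO 2 (36.9% of all features). The hormone genes Gcg (0.52 and -1.64) and Sst (1.13 and -2.23) went opposite ways on the 2 slides. Ins1 stood at 0.82 and -0.05 and the endocrine factor gene Insm1 at -0.02 and -1.22, and values this close to 0 change sign with scaling to the array median or lie within its shift. Among lectin-fold relatives outside the family, 8 of 12 were tested, with medians of 0.18 and -0.99. The surfactant protein gene Sftpa1 differed by -0.51 and -1.51, the collectin gene Colec12 by -0.24 and -2.03, the mannose-binding lectin gene Mbl2 by 0.04 and -2.30 and Clec7a, the beta-glucan receptor of myeloid cells, by 1.12 and 2.36. Clec7a and Mbl2 thus had opposite signs on slide 2.

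**Figure D4:**
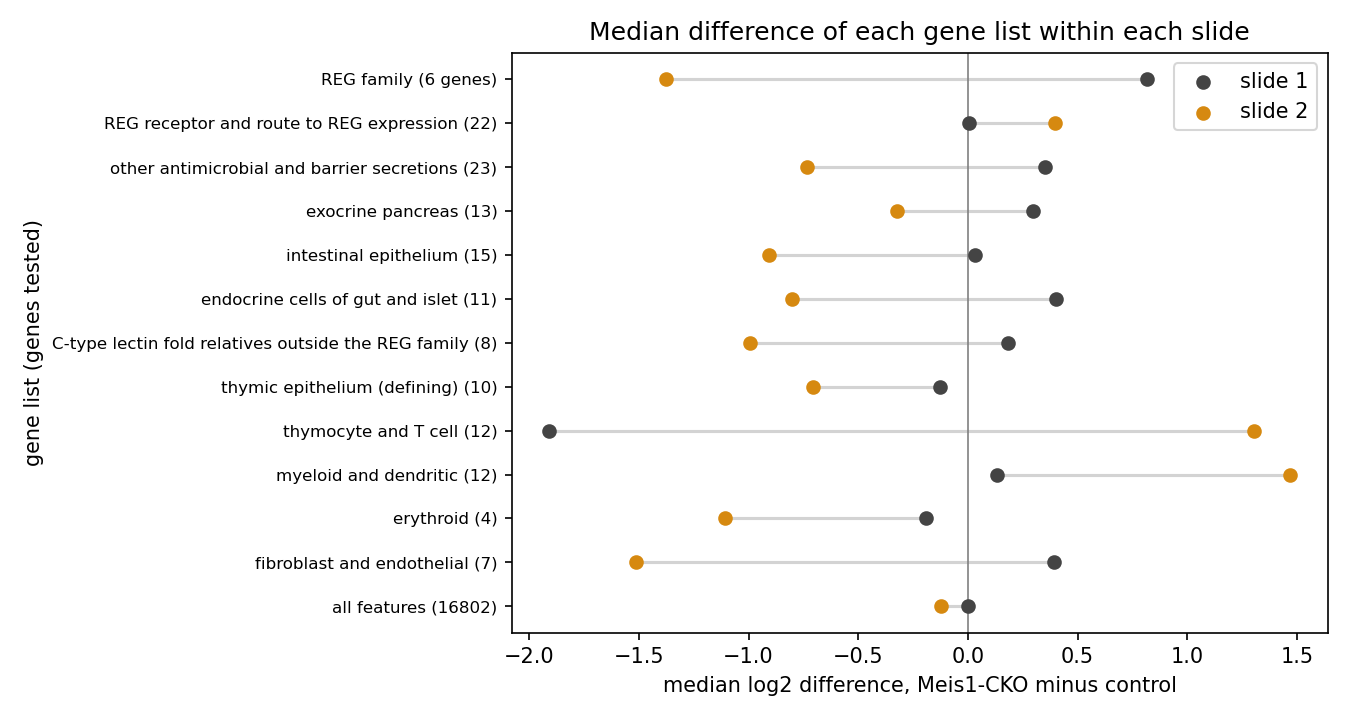
Median log2 difference of Meis1-CKO minus control (x axis) on slide 1 and on slide 2 for the 6 tested REG genes, each other gene list and all features (y axis, genes tested in brackets). The REG medians are 0.82 on slide 1 and -1.38 on slide 2, and the thymocyte list runs the other way. With scaling to the array median the slide 1 median of all features would be -0.13 and medians close to 0 would change sign.

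Markers of several cell types differed between the pools. The signals of the 10 thymic epithelial markers summed to 644 and 518 times the 75th percentile in the control pools. In the Meis1-CKO pools they summed to 523 (Meis1-CKO 1) and 445 (Meis1-CKO 2). Of the 10, 9 were lowest in Meis1-CKO 2, where 36.9% of all features were lowest. The exception, Cd74, was the brightest of the 10 and read 7.75, 7.71, 7.71 and 8.08 in the same order of pools. The sum therefore hides part of the fall of the other markers in Meis1-CKO 2. Aire, in the same order of pools, read 2.50, 4.59, 3.03 and 2.37, so it was higher on slide 1 (0.53) and lower on slide 2 (-2.22) in Meis1-CKO. The tested REG genes showed this pattern, as did 3 of the 10 epithelial markers and 29.8% of all features. Aire was highest in control 2, where Reg3g and Reg3a read lower than in control 1 and the other tested REG genes higher. Fezf2, another regulator of tissue-restricted antigens, read 2.80, 2.68, 2.85 and 1.05 (0.05 on slide 1 and -1.63 on slide 2). The 14 myeloid and dendritic markers summed to 26.7 and 33.7 in the controls and to 31.2 (Meis1-CKO 1) and 104 (Meis1-CKO 2). In Meis1-CKO 2, 14 of 14 were well above background, and 9 to 12 elsewhere. The sum leans on Ptprc, the brightest of the tested ones in Meis1-CKO 2, which read 1.44, 1.19, -0.75 and 5.55 in the same order of pools. Lyz2 (-0.49) and C1qb (-0.07) were not higher in Meis1-CKO on slide 2. The 14 thymocyte markers summed to 58.5 and 23.3 in the controls and to 9.05 and 52.4 in Meis1-CKO. Rag2 was not well above background on any array. All 4 tested erythroid markers were lowest in Meis1-CKO 2 (36.9% of all features), with median differences of -0.19 on slide 1 and -1.11 on slide 2. The 10 fibroblast and endothelial markers summed to 11.3 and 7.02 in the controls and to 12 and 7.20 in Meis1-CKO. The part of these shifts in the REG values was not tested.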

How the data were processed

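Each pool was hybridised to 1 Agilent array. Per the file headers, the deposited spot intensity values come from Agilent Feature Extraction 9.5.3.1, which subtracted background, detrended each array and put surrogates in place of low values. Arrays were not scaled to each other. The deposited value table holds log2 values centred on each probe, and the sources used here do not give its processing. Its differences between columns matched the scaled scanner values (slope 1, 20818 probes), and its column medians were 0.04, 0.09, -0.06 and -0.12 (control pools, then Meis1-CKO pools).

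The log2 processed signal minus the 75th percentile over non-control spots of each array was used, without control spots and outlier flags. Repeated spots were averaged. The filter kept 24266 probes that both arrays of 1 group or the other showed well above background, and each gene was represented by its brightest probe on average (16810 features). Groups were compared with limma 3.58.1 (R 4.3.3), all 4 arrays in 1 model with no block, with Benjamini-Hochberg adjustment over all features and a threshold of 0.05. A feature is called separated where the genotypes do not overlap and differ by 2-fold or more. The fit was tested on simulated data. Symbols were updated by RefSeq accession for 26690 probes and by a single older symbol for 945, and 6840 had none. Promoters were aligned with Biopython 1.88. With 2 residual degrees of freedom, the number of arrays limits the precision.

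The members and lists were chosen with earlier results of these data known. Genes named are all members, up to 4 of each list with the smallest p, the 5 closest to Reg3g, 9 genes fixed by name (Meis1, Aire, Fezf2, Epcam, Krt5, Krt14, Krt8, Foxn1 and Psmb11), and those said to be chosen later. Same-numbered arrays, which share a slide, had deviations from their group means that correlated at 0.13, and the labels tie no number to a shared day, so the block is an alternative. Other alternatives were normexp, median and quantile scaling, other filters, every probe on its own, the value table and leaving out each array. The summed level of the erythroid markers is not reported here.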

Additional observations from a re-analysis of the deposited data

How the results depend on the processing

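The log2 differences of Reg1, Reg2, Reg3a, Reg3b, Reg3g and Reg4 kept their sign in all 48 values under normexp, median or quantile scaling, the 2 other filters, every probe on its own, the deposited value table and the replicate block, and no adjusted p of theirs was under 0.05. With the replicate block the Reg3g difference was again -0.34, and limma called 0 features higher and 0 lower. Left out 1 at a time, the arrays gave ranges of -0.072 to 1.15 for Reg1, -1.27 to 1.15 for Reg2, -2.09 to 0.74 for Reg3a, -1.60 to 0.41 for Reg3b, -1.10 to 0.41 for Reg3g, -1.44 to 0.53 for Reg4 and 0.90 to 3.05 for Reg3d. Signs turned for Reg1 without control 1 and for Reg2 and Reg4 without control 2 (1.15 and 0.10). They also turned for Reg2, Reg3a, Reg3b, Reg3g and Reg4 without Meis1-CKO 2. Within slide 1, chosen as a setting after seeing the data, Reg2 (1.22), Reg3a (0.071), Reg3b (0.54), Reg3g (0.15) and Reg4 (1.09) were opposite in sign to the difference over both slides, and within slide 2 Reg1 (-0.50) was. Reg3d moved to 0.19 with normexp; with no filter it was tested, at an adjusted p of 0.698. Without Meis1-CKO 1, limma called 200 features higher and 117 lower, the lone array being assumed to vary as the control arrays do. Leaving out another array gave 0 calls. Separated features, 562 higher and 662 lower of 16810, numbered 93 and 42 of 16810 with normexp. They numbered 870 and 1440 of 28127 with no filter, and 235 and 345 of 14635 above background on all 4 arrays. With every probe on its own they numbered 852 and 927 of 24266. The number tested differs between these settings, so the counts are not like for like. Without 1 array, separated features ranged from 831 to 1994 higher and from 771 to 2727 lower. There 1 pool is set against 2, so that arrays fail to overlap more easily than with 2 against 2. Beyond these differences in what was counted, why the counts and signs moved was not tested. Signals near background, as for Reg3d, have no settled order.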
